A study of Mus musculus with 12 samples.

Results

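The genes examined here encode the precursor, peptidases and receptors of the renin-angiotensin system: Agt, Ren1, Ace, Enpep, Anpep, Agtr1a, Agtr2, Mas1 and Atp6ap2. A gene was taken where a transcript cluster of the array (the probes summarised into 1 value for a locus) carried its symbol as the only gene in the probe annotation. Of the 9 genes listed, 8 were found among the 30743 genes of the table, each with 1 transcript cluster. Ren1, which encodes renin, had no cluster under its symbol in that annotation and was not analysed here. Of the 8 genes, 7 passed the filter on dim signal and entered the test together with all other genes, 22080 in all, and Mas1 did not.

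In this system renin cuts angiotensinogen to angiotensin I, and angiotensin-converting enzyme (ACE) on the endothelial surface turns that into angiotensin II. The type 1 receptor on smooth muscle answers angiotensin II with contraction and growth signals, while the type 2 receptor and the Mas receptor are known mainly for opposing effects. Aminopeptidase A and aminopeptidase N shorten the peptide from its amino end, so the gene set holds the source, the converting and degrading enzymes, and the receptors of the very hormone that was infused.

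The samples were total RNA from vessels of male C57BL/6 mice, 8 to 10 weeks old, each hybridised to an Affymetrix array. Angiotensin II was infused from an osmotic pump for 1, 3 or 7 days (1500 ng per kg and min), and untreated mice stood for day 0, with 3 biological replicates per day and 12 arrays in all. The labels do not say whether day 0 mice carried a vehicle pump, which vessel was taken or how much surrounding tissue came with it. Surgery and hormone therefore cannot be told apart in any comparison with day 0.

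Values are deposited log2 signals, and fold changes are computed from them. Pearson r between arrays lay between 0.969 and 0.993 within a day and between 0.916 and 0.990 across days. The gap between the medians of positive and negative control features, a sign of array quality, averaged 2.25 ± 0.29 at day 1, 1.98 ± 0.14 at day 3 and 1.76 ± 0.49 at day 7, against 2.59 ± 0.05 at day 0 (log2, SD, n = 3 each; exact two-sided permutation p = 0.1 each, the smallest that 3 against 3 arrays allow). Along with it dim genes moved up and brighter genes down, apart from the brightest. For day 7 against day 0 the median log2 change was 0.26 over the 7859 genes whose mean signal lay between 4 and 6. It was -0.26 over the 3301 genes between 8 and 10, -0.36 over the 978 between 10 and 12, and 0 over the 1180 between 12 and 20. The smooth muscle markers of a vessel wall were bright, with a list mean of 9.04 to 11.85 at day 7, against 14.32 to 14.47 at day 0. At day 7, 7 of 8 fell, beside 13.1% of all genes tested. Kidney and liver markers, 4 and 3 genes from the organs that are the main known sources of renin and angiotensinogen, lay under the negative control median on every array.

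The 3 comparisons with day 0 share the same 3 day 0 arrays, and their values are given side by side below. No gene of the set passed the test at day 1 or at day 3, and Anpep (higher) and Ace (lower) passed it at day 7. By limma with Benjamini-Hochberg adjustment over all genes, 0 of 7 genes were called on each of days 1 and 3 and 2 of 7 on day 7, beside 3.61%, 11.7% and 25.2% of all genes tested. At day 7, 12.1% of all genes rose and 13.1% fell. At an unadjusted p under 0.05 the counts were 0, 0 and 4 of 7, beside 16.4%, 28.2% and 43.3% of all genes tested. The median log2 change of the 7 genes was 0.10, 0.09 and 0.44, against 0.01, 0.08 and 0.09 over all genes tested. The day 7 median is the value of Agtr2, a dim gene that passed the filter only through treated arrays. In the F test over the 3 treated days, 0 of 7 passed, against 14.5% of all genes, and 2 had an unadjusted p under 0.05, beside 35.6% of all genes.

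**Figure D1:**
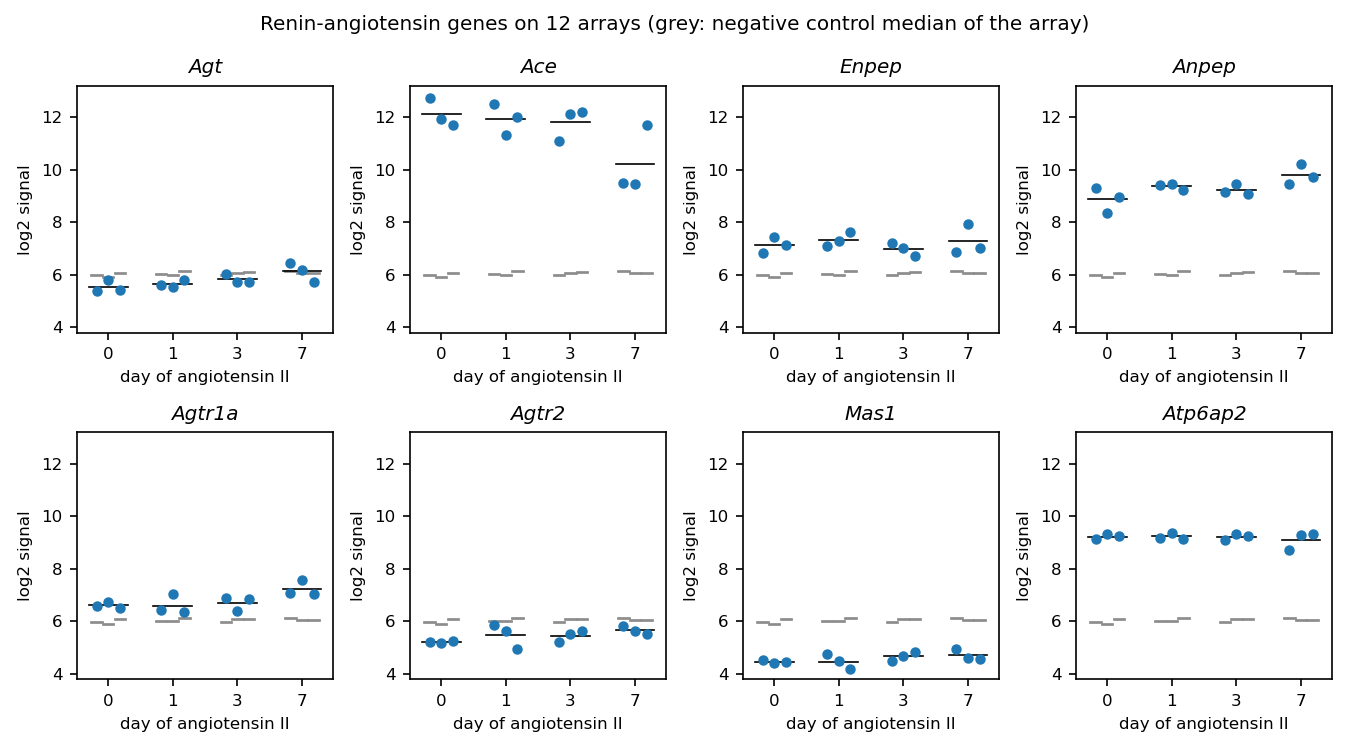
Log2 signal of 8 genes of the renin-angiotensin system on each of 12 arrays, by day of angiotensin II. Points are arrays, black lines the means of 3 arrays, and grey lines the negative control median of each array. Ace shows 2 day 7 arrays at 9.51 and 9.47 and the remaining one at 11.72, within the day 0 range, and Agtr2 and Mas1 lie under the grey lines on all 12 arrays.

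Whether a transcript was measurable was judged against the negative control features of the same array, whose medians ran from 5.91 to 6.14 and whose 95th percentiles ran from 9.64 to 10.55. Agtr2 and Mas1 lay under the median on all 12 arrays, so both are at background on every day. Agt lay under it on all arrays of days 0 and 1, and over it on 1 of 3 arrays at day 3 and on 2 of 3 at day 7. Ace exceeded the 95th percentile on all arrays of days 0, 1 and 3 and on 1 of 3 at day 7. Enpep, Anpep, Agtr1a and Atp6ap2 lay between the median and the 95th percentile on all 12 arrays. By this measure 3, 3, 2 and 2 of the 8 genes were at background on days 0, 1, 3 and 7. The median of all transcript clusters, 5.37 to 5.88, lay under the negative control median on every array. Most clusters of the array therefore lie under this mark, and a place under it is not particular to these genes. Against the median of the 23 antigenomic control features, a lower mark that was chosen after seeing the data, none of the 8 was at background on any day.

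Agt encodes angiotensinogen, the precursor of all angiotensin peptides. Its log2 signal was 5.40, 5.82 and 5.44 at day 0, 5.60, 5.54 and 5.82 at day 1, 6.04, 5.72 and 5.73 at day 3, and 6.46, 6.20 and 5.74 at day 7. The highest day 0 array lay above the lowest array of each treated day, so the groups overlapped throughout. The log2 change from day 0 was 0.10, 0.28 and 0.58 ± 0.19 (SE) at days 1, 3 and 7, with limma adjusted p = 0.925, 0.356 and 0.051. At day 7 Agt was called in 5 of 25 alternatives, over which its change was 0.31 to 0.78 with adjusted p from 0.012 to 0.586. Genes in the same range of mean signal, 4 to 6, shifted by a median of 0.03, 0.18 and 0.26 in the same comparisons. One array of day 0 and one of day 1 list the identical value of 5.82 for Agt.

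Ace encodes angiotensin-converting enzyme, a zinc peptidase on the endothelial surface that forms angiotensin II and degrades bradykinin. Its log2 signal was 12.72, 11.95 and 11.72 at day 0, 12.52, 11.33 and 12.02 at day 1, 11.11, 12.15 and 12.22 at day 3, and 9.51, 9.47 and 11.72 at day 7. On day 7, 2 arrays lay below every other array and the remaining one stood at the lowest day 0 value. Ace fell to a mean of 10.23 ± 1.29 at day 7, against 12.13 ± 0.53 at day 0 (SD, n = 3 each). The log2 change was -1.90 ± 0.62 (SE, 95% interval -3.28 to -0.52, limma adjusted p = 0.049), which is 0.269 of the day 0 signal. At days 1 and 3 the change was -0.17 and -0.30, with adjusted p = 0.979 and 0.757. Genes in the same range of mean signal, 10 to 12, shifted by a median of -0.09, -0.12 and -0.36 at days 1, 3 and 7. An exact two-sided permutation test of day 7 against day 0 gave p = 0.2.

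The Ace call stood close to the threshold and was lost in most fits without a single array. It was kept in 1 of the 12 fits that left out an array each, the fit without day 7 replicate 3 (-2.64, adjusted p = 0.006). Without a day 0 array, or without day 7 replicate 1 or 2, the change was -1.52 to -2.10 with adjusted p between 0.080 and 0.150. Arrays of days 1 and 3 enter only the estimate of spread. Without 1 of them the change stayed at -1.90, with adjusted p between 0.051 and 0.066. The call was also lost with the gap between control features as a covariate (-1.41) and with the adipocyte marker mean as one (-1.88).

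Ace varied together with some markers of the endothelium and not with others, and this was seen after the values were known. Across the 12 arrays Pearson r with Ace was 0.952 for Vwf (von Willebrand factor), 0.884 for Pecam1 (an adhesion molecule of endothelial junctions) and 0.807 for Tek (the angiopoietin receptor), but 0.207 for Cdh5 (VE-cadherin) and -0.279 for Kdr (a receptor of vascular endothelial growth factor). The arrays share their depth of signal and their tissue makeup, so these values are descriptions. Vwf had 7.06, 7.00 and 8.28 at day 7, against 9.36, 8.76 and 9.05 at day 0, so that the same day 7 arrays were low as for Ace. Vwf fell by 1.61 on the log2 scale (adjusted p = 0.038). It was the 1 gene of 8 endothelial markers that passed the test at day 7, beside 25.2% of all genes tested. Pecam1 (-1.44, adjusted p = 0.058) and Tek (-0.97, adjusted p = 0.077) did not pass. Nor did Tie1 (-0.25) and Cldn5 (-0.35). Emcn (0.31), Cdh5 (0.21) and Kdr (0.30) went the other way and did not pass either.

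The mean of the 8 endothelial markers ranged from 8.05 to 8.58 at day 7, against 8.66 to 9.17 at day 0, and from 9.09 to 9.58 at day 1. With this mean as a covariate, an alternative added after seeing the data, the Ace change at day 7 was -1.09 with adjusted p = 0.208. Fewer endothelial cells and less Ace RNA per endothelial cell cannot be told apart in RNA of whole tissue.

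The gene whose signal was most like that of Ace across the 12 arrays was Vwf, followed by Bmp6 (a bone morphogenetic protein, r = 0.936) and the small nucleolar RNA gene Snord4a (r = 0.905). Without the 2 arrays farthest from the median of Ace, r was 0.862 for Vwf, 0.811 for Bmp6 and 0.549 for Snord4a. Taken as deviations from the mean of each day, Ace and Vwf still had r = 0.888. No gene of the set passed the F test, so these genes were chosen after their values were seen.

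**Figure D2:**
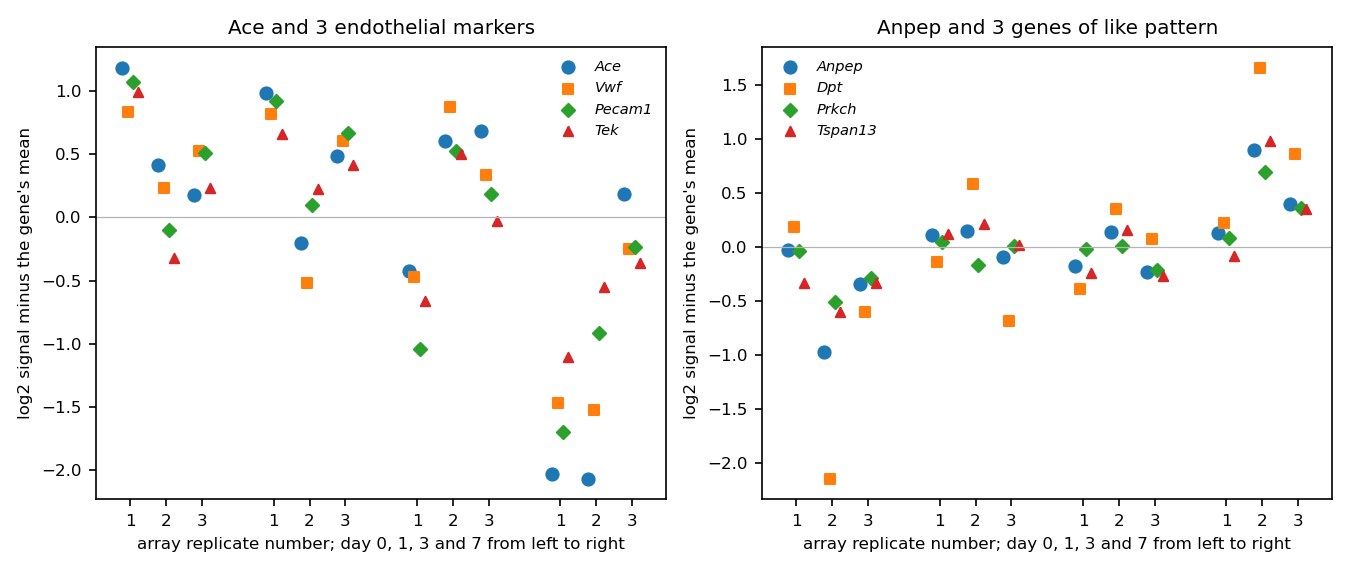
Log2 signal minus the gene's mean over 12 arrays, for each array, with the days from left to right. The left panel shows Ace with the 3 of 8 endothelial markers that had the highest r with it. All are below their own mean on day 7 replicates 1 and 2. The right panel shows Anpep with 3 genes of like pattern, highest on day 7 replicate 2 and lowest on day 0 replicate 2.

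The start regions of both genes that passed at day 7 are shown to let their sequence be compared. They are the windows from 250 bases before to 50 bases after a transcription start in RefSeq (GRCm38.p6), Ace on the plus strand with an upstream start at chr11:105967698-105967997 and a downstream start at chr11:105974939-105975238, and Anpep on the minus strand at chr7:79848161-79848460. The array has 1 value for Ace and does not separate its starts. Capitals mark the GC box, GGGCGG, searched on both strands with overlapping matches kept.
Ace upstream start: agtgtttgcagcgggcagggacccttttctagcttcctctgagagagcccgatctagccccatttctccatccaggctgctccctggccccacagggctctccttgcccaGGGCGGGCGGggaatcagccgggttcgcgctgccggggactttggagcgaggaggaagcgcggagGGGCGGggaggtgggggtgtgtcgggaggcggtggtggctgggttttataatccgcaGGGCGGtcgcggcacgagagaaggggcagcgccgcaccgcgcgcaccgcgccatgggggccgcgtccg
Ace downstream start: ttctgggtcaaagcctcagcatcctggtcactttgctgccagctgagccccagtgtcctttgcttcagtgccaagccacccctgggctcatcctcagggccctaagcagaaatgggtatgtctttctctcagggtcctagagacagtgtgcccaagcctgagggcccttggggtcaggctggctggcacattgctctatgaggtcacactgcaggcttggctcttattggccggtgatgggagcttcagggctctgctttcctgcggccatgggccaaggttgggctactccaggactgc
Anpep start: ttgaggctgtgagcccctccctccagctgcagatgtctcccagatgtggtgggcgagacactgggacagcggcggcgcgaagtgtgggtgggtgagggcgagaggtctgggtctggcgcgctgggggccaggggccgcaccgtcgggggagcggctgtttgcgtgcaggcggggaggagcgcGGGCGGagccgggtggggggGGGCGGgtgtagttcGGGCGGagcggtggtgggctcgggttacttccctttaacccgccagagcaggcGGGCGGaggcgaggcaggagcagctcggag
The upstream Ace window and the Anpep window held 4 GC boxes each, with a GC content of 69.7% and 72.3%, and the downstream Ace window held 0, with 59.0%. A share of 35.7% of all 32851 windows given held a GC box, and the mean GC content was 53.8%. The TATA box, TATAAA, was also searched on both strands. Its 1 match in the upstream Ace window lay on the opposite strand, where the printed strand reads TTTATA. The others shown had no match, and 13.6% of all windows had one. None of the 3 windows held TGANTCA, a site of AP-1 factors, or TTCNNNGAA, a site of STAT factors, which occurred in 7.81% and 8.30% of all windows. A match is a run of letters and not a measured binding site.

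Anpep encodes aminopeptidase N, also known as CD13, a membrane peptidase of fibroblasts, myeloid cells and activated endothelium that trims angiotensin III and other peptides. Its log2 signal was 9.30, 8.35 and 8.98 at day 0, 9.43, 9.47 and 9.22 at day 1, 9.14, 9.46 and 9.09 at day 3, and 9.45, 10.22 and 9.72 at day 7. All 3 day 7 arrays lay above all 3 day 0 arrays, while the arrays of days 1 and 3 overlapped with those of day 0. Anpep rose to a mean of 9.80 ± 0.39 at day 7, against 8.87 ± 0.48 at day 0 (SD, n = 3 each). The log2 change was 0.92 ± 0.25 (SE, 95% interval 0.35 to 1.49, limma adjusted p = 0.030), a 1.90-fold signal. At days 1 and 3 the change was 0.50 and 0.36, with adjusted p = 0.392 and 0.372. Genes with a mean signal between 8 and 10 moved the other way at day 7, by a median of -0.26.

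The call for Anpep was kept in 9 of the 12 fits without an array. It was lost without day 0 replicate 2 (0.66, adjusted p = 0.082), without day 0 replicate 3 (0.98, adjusted p = 0.063) and without day 7 replicate 2 (0.71, adjusted p = 0.085). It was also lost when the arrays were centred on their medians (0.65, adjusted p = 0.085), and with the gap between control features (1.14) or the adipocyte marker mean (0.72) as a covariate.

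Across the 12 arrays the pattern of Anpep was most like that of Dpt (dermatopontin, a matrix protein of fibroblasts, r = 0.954), Prkch (a protein kinase C, r = 0.931) and Tspan13 (a tetraspanin, r = 0.927), again chosen after their values were seen. Dpt had 13.40, 14.84 and 14.03 at day 7, against 13.36, 11.03 and 12.57 at day 0, with its lowest and highest array the same as those of Anpep. Without the 2 arrays farthest from the median of Anpep, r was 0.807, 0.803 and 0.860. The mean of 7 fibroblast markers, Dpt among them, ranged from 14.68 to 15.53 at day 7, against 12.97 to 14.00 at day 0, and 4 of 7 rose. The mean of 8 macrophage markers ranged from 9.02 to 10.15 at day 7, against 7.76 to 8.18 at day 0, and 7 of 8 rose. At day 1 the macrophage mean was already 9.61 to 10.28 and 7 of 8 rose. Of all genes tested, 12.1% rose at day 7, and 3.61% were called at day 1 in either direction. The part of these cells in the Anpep signal was not tested.

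Enpep encodes aminopeptidase A, which removes the first residue of angiotensin II to give angiotensin III. The log2 signal of Enpep was 6.82, 7.46 and 7.15 at day 0, 7.09, 7.28 and 7.65 at day 1, 7.20, 7.04 and 6.74 at day 3, and 6.89, 7.93 and 7.02 at day 7. The widest spread was among the day 7 arrays, which overlapped with all other days. The log2 change was 0.20, -0.15 and 0.14 ± 0.28 (SE), with limma adjusted p = 0.871, 0.740 and 0.732. The day 7 value turned negative when the arrays were centred on their medians (-0.14).

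Agtr1a encodes the main angiotensin type 1 receptor of mouse vessels. Its log2 signal was 6.57, 6.76 and 6.52 at day 0, 6.43, 7.04 and 6.35 at day 1, 6.88, 6.40 and 6.84 at day 3, and 7.07, 7.57 and 7.03 at day 7. The day 7 arrays lay above all arrays of day 0 and of day 3, but the lowest of them lay just under the highest day 1 array. The log2 change was -0.01, 0.09 and 0.61 ± 0.22 (SE), with limma adjusted p = 1.0, 0.798 and 0.065. The exact two-sided permutation test of day 7 against day 0 gave p = 0.1, the smallest possible. Centred on array medians, the day 7 change was 0.33.

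Agtr1b, the second type 1 receptor gene of the mouse, belongs to the list of receptors and modulators. It is listed at the identical value of 6.81 on 9 of the 12 arrays, and no change is read from it.

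Agtr2 encodes the type 2 receptor, abundant in fetal tissue and known for opposing the type 1 receptor. Signals of 5.23, 5.19 and 5.23 were measured at day 0, 5.86, 5.62 and 4.95 at day 1, 5.22, 5.51 and 5.63 at day 3, and 5.83, 5.62 and 5.51 at day 7 (log2). The day 7 arrays lay above all day 0 arrays, though all were under the negative control median. All day 0 arrays lay under the filter cut of 5.25, so Agtr2 passed the filter only through treated arrays. No rise is read from this order of arrays. The change was 0.26, 0.24 and 0.44 ± 0.21 (SE), with limma adjusted p = 0.669, 0.463 and 0.137. Genes with a mean signal between 4 and 6 shifted by a median of 0.26 at day 7, and centred on array medians Agtr2 had a change of 0.16. With the gap between control features as a covariate its day 7 value was -0.12.

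Mas1 encodes the Mas receptor, which binds a shortened angiotensin peptide. It had 4.54, 4.41 and 4.44 at day 0, 4.76, 4.48 and 4.17 at day 1, 4.48, 4.67 and 4.85 at day 3, and 4.94, 4.62 and 4.58 at day 7. The day 7 arrays lay above the day 0 arrays at a level under the negative control median. Fitted without the filter, its change was 0.01, 0.20 and 0.25.

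Atp6ap2 encodes the prorenin receptor, which is also an accessory subunit of the vacuolar proton pump. The 12 arrays gave 9.13, 9.32 and 9.24 at day 0, 9.17, 9.39 and 9.15 at day 1, 9.09, 9.33 and 9.25 at day 3, and 8.71, 9.29 and 9.32 at day 7. Apart from day 7 replicate 1, the array with the lowest difference between positive and negative controls (1.20), all arrays lay between 9.09 and 9.39. The change was 0.01, -0.01 and -0.12 ± 0.16 (SE), with adjusted p = 1.0, 0.989 and 0.556. The 95% interval at day 7 ran from -0.48 to 0.23.

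**Figure D3:**
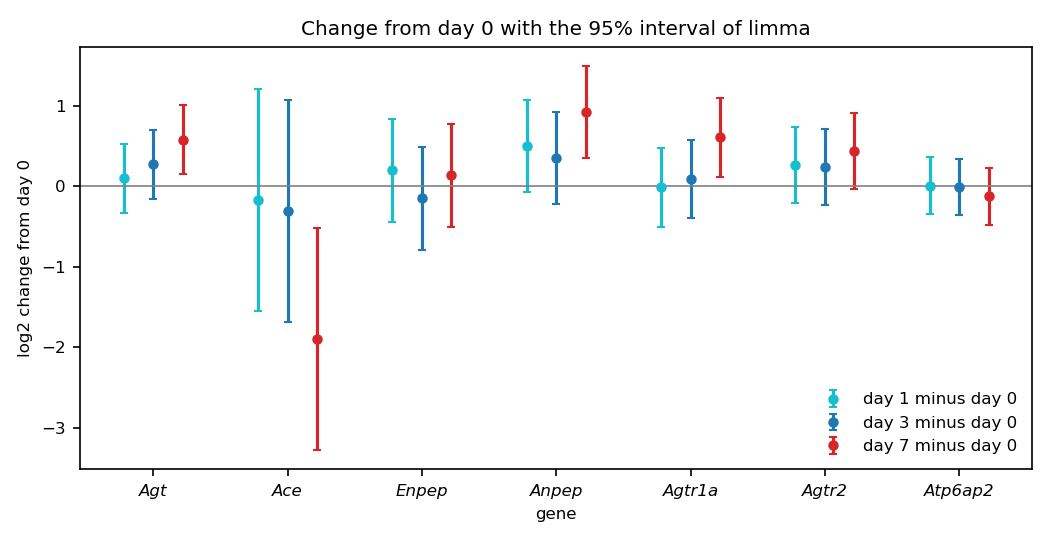
Log2 change from day 0 of the 7 genes tested, at days 1, 3 and 7, with the 95% interval of limma. At day 7 the interval excludes 0 for Ace (-3.28 to -0.52), Anpep (0.35 to 1.49), Agt and Agtr1a, of which Agt (0.58) and Agtr1a (0.61) did not pass after adjustment over all genes.

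Of the 7 genes tested, 3 (Agtr1a, Agtr2 and Anpep) had all day 7 arrays above all day 0 arrays, beside 26.6% of all genes tested. Agtr2 passed the filter only through treated arrays, so no rise is read from its place here. Mas1, which did not pass the filter, also had its day 7 arrays above day 0, under the negative control median. None of the 8 had all treated arrays beyond the day 0 arrays at day 1 or day 3, beside 23.2% and 44.6% of all genes in either direction.

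Between treated days, limma called none of the 7 genes. For day 7 against day 1, 0 of 7 were called, beside 4.78% of all genes, and 3 had an unadjusted p under 0.05, beside 31.0% of all genes. For day 7 against day 3 the counts were 0, beside 0.267%, and 2, beside 12.9%. For day 3 against day 1 both were 0, beside 0% of all genes called and 8.04% (1775 genes) with an unadjusted p under 0.05. The Ace difference was -1.72 ± 0.62 for day 7 against day 1 (adjusted p = 0.104) and -1.59 for day 7 against day 3 (adjusted p = 0.323). Arrays of days 7 and 1 with the same replicate number deviated together (r = 0.61, 0.36 and 0.66). With that number as a block over these 6 arrays, an alternative added after seeing the data, limma called 1 of the 7 genes for day 7 against day 1. The same fit called 2103 of all 22080 genes tested. That gene was Agtr1a, with a change of 0.62 (adjusted p = 0.041, against 0.101 without the block) and differences of 0.65, 0.53 and 0.68 in the 3 pairs.

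Of 16 further enzymes that make or break angiotensin and kinin peptides, 11 were tested: 0 rose and 0 fell at day 1, 1 rose and 0 fell at day 3, and 2 rose and 2 fell at day 7. Over all genes tested, 3.61%, 11.7% and 25.2% were called on these days in either direction. The median change of the list was 0.12, 0.07 and 0.02, against 0.01, 0.08 and 0.09 over all genes. Mcpt4, the mast cell chymase that can form angiotensin II in mouse tissue, fell at day 7 by 0.84 ± 0.22 on the log2 scale (adjusted p = 0.027). It had 7.88, 8.27 and 8.25 at day 7, against 8.92, 8.75 and 9.26 at day 0, below every other array of the study. Cma1, another mast cell chymase, rose at day 3 by 0.57 ± 0.15 (adjusted p = 0.038) and had a change of 0.03 at day 7. The mean of 6 mast cell markers was 5.86 to 5.98 at day 7, against 6.12 to 6.38 at day 0, with 2 of 4 tested lower at day 7. The part of mast cells in the Mcpt4 signal was not tested. With the gap between control features as a covariate the Mcpt4 change was -0.30 and not called, and Cma1 was called in 13 of 25 alternatives.

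Prep, a peptidase that cleaves after proline and can shorten angiotensin II, fell at day 7 by 0.61 ± 0.14 (adjusted p = 0.018), with 7.29, 7.78 and 7.54 at day 7, against 7.99, 8.31 and 8.13 at day 0, but had a change of -0.20 with the control feature covariate. Dpp4, a dipeptidyl peptidase, rose at day 7 by 0.58 ± 0.07 (adjusted p = 0.002), with 6.22, 6.19 and 6.19 against 5.70, 5.55 and 5.61 at day 0, where it lay under the negative control median, and was not called on centred arrays (0.31, adjusted p = 0.057). The other gene counted as higher at day 7, Klk1 (tissue kallikrein), lay under the negative control median, passed the filter only through treated arrays and was called in 8 of 22 alternatives, so no change is read from it. Neprilysin (Mme), which degrades angiotensin and natriuretic peptides, had a change of 0.02 ± 0.24 at day 7 (adjusted p = 0.969).

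Among 11 receptors and modulators of angiotensin and kinin peptides 7 were tested, and 2, 2 and 1 rose at days 1, 3 and 7, with none lower. The share of all genes tested that was called in either direction was 3.61%, 11.7% and 25.2%. The median change of this list was 0.16, 0.18 and -0.03, against 0.01, 0.08 and 0.09 over all genes. Grk5, a kinase that desensitises G protein-coupled receptors, rose by 0.98 ± 0.22 at day 1 (adjusted p = 0.046) and by 0.99 at day 3 (adjusted p = 0.023). Its signal was 8.53, 8.25 and 8.38 at day 0, 9.05, 9.63 and 9.41 at day 1, 9.07, 9.43 and 9.63 at day 3, and 7.94, 8.41 and 8.71 at day 7. The arrays of days 1 and 3 all lay above those of day 0, and those of day 7 overlapped with day 0 (-0.03, adjusted p = 0.935). Grk5 was called in 11 of 25 alternatives at day 1 and in 18 of 25 at day 3. Arap1, a GTPase activator described in the kidney as a trafficking partner of the type 1 receptor, rose by 0.28, 0.26 and 0.29 ± 0.06 on the 3 days (adjusted p = 0.042, 0.029 and 0.012). On arrays centred on their medians its change was 0.25, 0.076 and 0.018, with adjusted p = 0.491, 0.733 and 0.924, and it was called in 6, 13 and 20 of 25 alternatives. The bradykinin receptor genes Bdkrb1 (0.25, adjusted p = 0.151) and Bdkrb2 (-0.07, adjusted p = 0.615) did not pass at day 7.

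The list of type 1 receptor signalling holds genes that carry the signal and genes that regulate it. Of 16 genes tested, 0, 6 and 9 fell at days 1, 3 and 7, and none rose. Over all genes tested, 3.61%, 11.7% and 25.2% were called on these days in either direction, and 13.1% fell at day 7. The list had median changes of -0.29, -0.44 and -0.64, against 0.01, 0.08 and 0.09 over all genes. Those lower at day 3 were Gna11 and Gna12 (G protein alpha subunits), Plcb1 (a phospholipase C), Arhgef12 (a guanine nucleotide exchange factor), Rock1 (a protein kinase that promotes contraction) and Rgs4 (a regulator of G protein signalling). At day 7 Rgs5, Rhoa and Arhgef11 were lower as well. Rock1 fell by 3.79 ± 0.65 at day 7 (adjusted p = 0.005), with 10.54, 10.97 and 12.62 at day 7, against 15.22, 14.85 and 15.42 at day 0. Rgs5 fell by 2.85 ± 0.81 (adjusted p = 0.033), Rgs4 by 2.20 ± 0.58 (adjusted p = 0.026) and Arhgef12 by 1.60 ± 0.31 (adjusted p = 0.008). Rhoa fell by 1.01 ± 0.31 (adjusted p = 0.042). Once the gap between control features entered as a covariate, 0 of the 16 genes were called at day 3 and 0 at day 7, where the change was -1.91 for Rock1, -0.55 for Arhgef12, -0.38 for Rgs4, -0.32 for Rgs5 and 0.081 for Rhoa. The fit with the control feature covariate called 464 and 772 of all 22080 genes on these days, against 2584 and 5572 without it. With the adipocyte marker mean as a covariate 0 and 3 were called at days 3 and 7, beside 31 and 1549 of all genes. With the endothelial one 5 and 4 were called. At day 3 the count was 1 without any one of the day 0 arrays or without day 3 replicate 2, and 0 without day 3 replicate 3. At day 7 it was 5 without day 0 replicate 2. Over all genes, leaving out 1 array gave 714 to 3491 calls at day 3 and 2834 to 7468 at day 7. Rgs2 had a change of 1.38 ± 0.62 at day 7 and did not pass (adjusted p = 0.118). Smooth muscle, the cell in which many of these genes are abundant, had its marker mean at 9.04 to 11.85 at day 7, against 14.32 to 14.47 at day 0, and its part in these values was not tested.

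**Figure D4:**
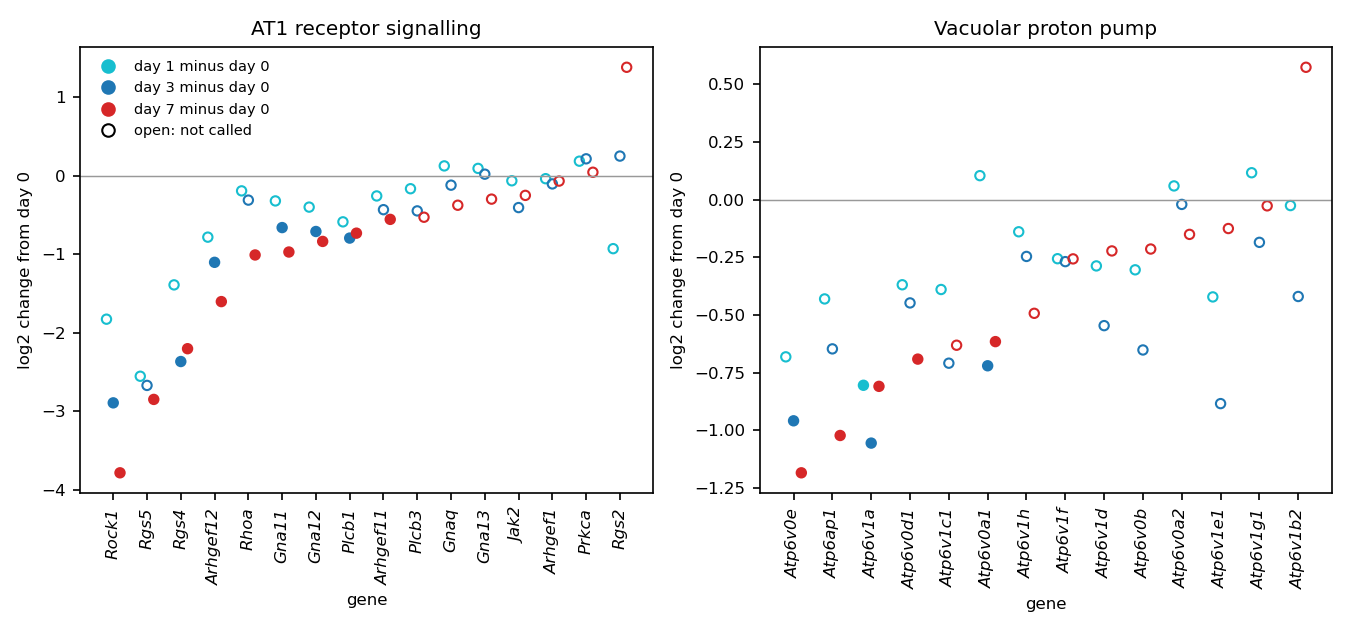
Log2 change from day 0 at days 1, 3 and 7 for the tested genes of type 1 receptor (AT1) signalling (16 genes) and of the vacuolar proton pump (14 genes), filled where the adjusted p was under 0.05. In the signalling list 9 genes are filled at day 7, all below 0, and in the pump list 5 are, all below 0. Of all genes tested 25.2% were called at day 7.

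The vacuolar proton pump, the complex to which the Atp6ap2 protein binds, had 14 subunit genes tested. Of these 1, 3 and 5 fell at days 1, 3 and 7 and none rose. The share of all genes tested that was called was 3.61%, 11.7% and 25.2% in either direction, and 13.1% fell at day 7. The median change of the subunit genes was -0.30, -0.60 and -0.37, against 0.01, 0.08 and 0.09 over all genes. Atp6v1a, the catalytic subunit, fell by 0.80, 1.05 and 0.81 ± 0.18 on the 3 days (adjusted p = 0.041, 0.008 and 0.012). Its signal was 7.72, 7.99 and 7.70 at day 0, 6.71, 7.20 and 7.09 at day 1, 6.76, 6.84 and 6.65 at day 3, and 6.65, 7.26 and 7.08 at day 7, below day 0 on all 9 treated arrays, though its day 1 call was kept in 9 of 25 alternatives. Atp6v0e fell by 0.96 at day 3 and by 1.18 at day 7 (± 0.21, adjusted p = 0.020 and 0.005), and Atp6ap1, the other accessory subunit, fell by 1.02 ± 0.24 at day 7 (adjusted p = 0.017). Atp6v0d1 (-0.69) and Atp6v0a1 (-0.62) passed at day 7 with adjusted p = 0.042 and 0.047. With the gap between control features as a covariate 0 subunits were called at day 3 and 0 at day 7, where the change was -0.28 for Atp6v1a, -0.56 for Atp6v0e, -0.24 for Atp6ap1, 0.0046 for Atp6v0d1 and 0.019 for Atp6v0a1. That fit called 464 and 772 of all genes at days 3 and 7, against 2584 and 5572 without the covariate. With the adipocyte covariate 0 and 1 subunits were called on these days, beside 31 and 1549 of all genes. With only the 6 arrays compared 8 and 1 were called, beside 4515 and 2712 of all genes. The day 3 count was 1 without day 0 replicate 2 or 3 or any one of the day 3 arrays, and 7 without day 7 replicate 1. The day 7 count was 2 without day 0 replicate 2 and lay between 3 and 6 without any other array. Over all genes, the fits without 1 array called 714 to 3491 at day 3 and 2834 to 7468 at day 7. Atp6ap2 itself had a change of -0.12 at day 7, and the difference between it and these subunits was not tested.

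Nr3c2 encodes the mineralocorticoid receptor, which aldosterone, released in response to angiotensin II, activates. It was the 1 gene called of 3 tested in this arm, beside 3.61%, 11.7% and 25.2% of all genes tested at days 1, 3 and 7. Nr3c2 fell at all 3 times by 0.61, 0.76 and 0.78 ± 0.11 (adjusted p = 0.020, 0.005 and 0.002). Its signal was 7.42, 7.66 and 7.80 at day 0, 7.00, 6.99 and 7.04 at day 1, 6.94, 6.96 and 6.69 at day 3, and 6.87, 6.75 and 6.90 at day 7. All 9 treated arrays lay below all day 0 arrays. Nr3c2 was called in 17 of 25 alternatives at day 1 and in 24 of 25 at each of days 3 and 7. Sgk1, a kinase induced by that receptor, had a change of -0.67 ± 0.27 at day 7 and did not pass (adjusted p = 0.090). The aldosterone synthase gene Cyp11b2 did not pass the filter on dim signal.

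Of 8 membrane peptidases related to aminopeptidase N or found beside it on cell surfaces, 7 were tested. At day 7, 1 of them rose, beside 25.2% of all genes tested called in either direction. None was called at days 1 and 3, beside 3.61% and 11.7% of all genes. Fap, a serine peptidase of activated fibroblasts, rose by 1.99 ± 0.21 (adjusted p = 0.001), with 8.76, 9.05 and 9.10 at day 7, against 7.18, 6.71 and 7.06 at day 0. All day 7 arrays lay above every other array of the study. The relatives Erap1 (-0.53, adjusted p = 0.110), Lvrn (0.20, adjusted p = 0.071), Trhde (0.36, adjusted p = 0.097) and Npepps (-0.10, adjusted p = 0.621) and the converting enzyme of endothelin, Ece1 (-0.66, adjusted p = 0.151), did not pass at day 7.

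The means of brown adipocyte and pericyte markers lay under day 0 on all 3 treated days. Cardiac and skeletal muscle markers were called at day 7 only. The mean of 8 brown adipocyte markers was 6.94 to 7.56 at day 1, 7.24 to 7.76 at day 3 and 6.68 to 7.92 at day 7, under the 8.06 to 8.35 of day 0, and of 7 tested 1, 3 and 2 fell while 1, 1 and 0 rose. The mean of 8 pericyte markers was 7.46 to 7.85, 7.26 to 7.54 and 6.97 to 7.39 on these days, under the 7.99 to 8.05 of day 0. Of 7 pericyte markers tested 1, 1 and 3 fell, and 1 rose at day 7. Beside these counts, 3.61%, 11.7% and 25.2% of all genes tested were called in either direction. The mean of 5 cardiac muscle markers was 7.06 to 7.41 at day 7, against 5.72 to 5.85 at day 0. At day 7, 4 of 4 cardiac markers tested and 5 of 6 skeletal muscle markers rose, beside 12.1% of all genes tested. The mean of 7 white adipocyte markers was 11.10 to 11.69 at day 7, against 11.17 to 11.50 at day 0. Of these 0, 0 and 1 rose at days 1, 3 and 7 and none fell. Whether these cells and tissues contributed to the values of the renin-angiotensin genes was not tested.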

How the data were processed

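Total RNA of 12 arrays in 4 groups of 3 was compared. The authors deposited log2 signals and, per the submitters' processing notes, used Affymetrix Expression Console. Its version and its background correction and normalization are unstated in the labels and headers. The array design that the labels name is not that of the identifiers, which are transcript clusters, and names came from the annotation given with the platform. Of 65956 clusters 31216 had 1 gene, 1534 several and 33206 none. Those with 1 gene were used, with the cluster of highest mean for each gene. The scale ends at a ceiling of 19.93. The filter kept a gene if 3 or more of the 12 arrays were at or above 5.25, the 40th percentile over all clusters. R 4.3.3 with limma 3.58.1 fitted a mean per day over all 12 arrays, after a check on simulated data. A call is a Benjamini-Hochberg adjusted p under 0.05 over all genes tested. Nothing was normalized again. Precision is set by 3 arrays a day. The labels call the arrays of a day biological replicates.

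Genes named are the 9 listed, up to 5 called genes per pathway list by the largest change, and genes of like pattern. Genes outside this rule (for example Mme, Rgs2, Sgk1, Gna11, Gna12, Plcb1, Arhgef11, Bdkrb1 and Erap1) were named after their values were seen. The members, lists and alternatives were chosen with earlier results of these data known. Alternatives were quantile normalization, median centring, filters, array weights, the replicate number as a block, covariates, leaving out arrays and fitting 6 arrays. Added after seeing the data were leaving out constant clusters, the endothelial covariate, the replicate block over 6 arrays and the antigenomic background. Equal replicate numbers correlated in all 3 pairs only between days 7 and 1, a hint from the data, since the labels name no shared litter or batch.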

Additional observations from a re-analysis of the deposited data

Results flagged for a closer look

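Some genes of the wider lists differed between treated days, by limma's contrast of the later with the earlier day, adjusted over all genes tested. Fap changed by 1.73 for day 7 against day 1 (adjusted p = 0.009) and by 1.63 for day 7 against day 3 (adjusted p = 0.020), higher on 3 of 3 arrays each time. Dpp4 changed by 0.50 for day 7 against day 1 (adjusted p = 0.014), higher on 3 of 3 arrays. Mcpt4 changed by -1.01 for day 7 against day 1 (adjusted p = 0.041) and Grk5 by -1.01 (adjusted p = 0.041), each lower on 3 of 3 arrays, and each call was kept in 13 of 25 alternatives. With the replicate number as a block over the arrays of days 7 and 1, Mcpt4 had adjusted p = 0.054. None of the 7 renin-angiotensin genes tested differed this way after adjustment, apart from Agtr1a under that block (0.62, adjusted p = 0.041), which called 2103 of all 22080 genes.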

How the results depend on the processing

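Over 25 alternatives (24 for Agtr2) for each of the 7 genes and 3 comparisons with day 0, 522 values in all, 454 kept direction and call, 24 lost the call, 9 gained it and 35 turned sign. The count of these genes called at day 7, 2 as reported, was 1 with median centring, without the filter, with the endothelial covariate and with the replicate block, 0 with the control feature covariate, the adipocyte covariate or only 6 arrays, and 0 to 3 when an array was left out. With array weights 2 were called at day 1 and 1 for day 7 against day 1, where leaving out an array gave 0 to 2. Ace at day 7 was called in 8 of 25 alternatives (-2.64 to -1.09, adjusted p 0.006 to 0.495) and Anpep in 18 of 25 (0.65 to 1.21, adjusted p 0.021 to 0.170). Deviations of equal replicate numbers had r of -0.51 to 0.66 (others -0.65 to 0.46), with all 3 pairs over 0.1 for days 7 and 1 only, where the replicate block gave 1271 genes and none of the 7 over 12 arrays, and 2103 genes and 1 of the 7 over those 6 arrays alone (Mcpt4 then had adjusted p = 0.054). In the comparisons with day 0, with the replicate block Ace had adjusted p = 0.059 and Anpep 0.048. Sign turns, where the reported value was mostly near 0, were as follows. At day 1 Atp6ap2 was -0.028 with centring, -0.067 with the adipocyte and -0.11 with the endothelial covariate, and Agtr1a was 0.41 with array weights, 0.042 with the control feature and 0.16 with the endothelial covariate. Ace was 0.025 with the control feature covariate and Agtr2 -0.22 with the adipocyte covariate. At day 3 the control feature covariate gave Ace 0.050, Agtr2 -0.17, Atp6ap2 0.29 and Enpep 0.31, the adipocyte covariate gave Agtr1a -0.056 and Agtr2 -0.20, centring gave Agtr1a -0.093, and Atp6ap2 was 0.019 with quantile normalization and 0.035 with array weights. At day 7 the control feature covariate gave Agtr2 -0.12 and Atp6ap2 0.28, array weights gave Atp6ap2 0.00051 and centring gave Enpep -0.14. Leaving out 1 array moved Ace between -0.45 and 0.14, Agtr1a between -0.23 and 0.12 and Atp6ap2 between -0.068 and 0.050 at day 1. It moved Ace between -0.51 and 0.053, Atp6ap2 between -0.059 and 0.058 and Enpep between -0.31 and 0.0082 at day 3, and Atp6ap2 between -0.23 and 0.076 and Enpep between -0.19 and 0.33 at day 7. Of 37 values of named list genes, called in 637 of 922 alternatives, the control feature covariate turned Rhoa (0.081), Atp6v0a1 (0.019) and Atp6v0d1 (0.0046) at day 7. Over all genes the calls at day 1, 797, were 439 with quantile normalization and 439 with centring, 7016 with array weights, 0 with the adipocyte and 78 with the endothelial covariate, 209 with only 6 arrays, and 101 to 1090 with an array left out. At day 3, 2584 became 6728 (array weights), 464 (control feature), 31 (adipocyte), 4515 (6 arrays) and 714 to 3491 (an array left out). At day 7, 5572 became 772 (control feature), 1549 (adipocyte), 2590 (endothelial), 2712 (6 arrays) and 2834 to 7468. For day 3 against day 1, 0 became 7596 with array weights and 0 to 1 with an array left out. For day 7 against day 1, 1055 became 2091 (quantile), 2240 (centring), 7023 (array weights), 364 (control feature), 3064 (adipocyte), 3 (endothelial), 2 (6 arrays) and 43 to 3779. For day 7 against day 3, 59 became 115 (quantile), 329 (array weights), 378 (control feature), 39 (adipocyte), 9 (endothelial), 1 (6 arrays) and 10 to 272. The F test, 3210, gave 13403 with array weights, 935, 1409 and 1440 with the control feature, adipocyte and endothelial covariates, and 1009 to 4308 with an array left out. The cause of these moves was not tested. Every other transcript cluster of a gene was not run, since each of the 8 renin-angiotensin genes had 1 cluster. Centring took out a shift of array medians from day 0 of 0.03, 0.18 and 0.27. Signal near the negative controls limits Agt, Agtr2 and Mas1, whose changes are compressed there, and 3 arrays a day limit every estimate.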
